A study of Mus musculus with 9 samples.

Results

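Astrocyte identity and reactivity genes were examined in RNA of motoneurons from the mouse spinal cord, as 35 genes of a fixed list looked up by symbol among the 55401 genes of the deposited table. Of these, 28 are listed as homeostatic genes, here a name for genes of resting astrocytes, though some are also expressed by other cells. The other 7 are reactive genes (Gfap, Vim, Nes, Serpina3n, Lcn2, Cd44 and Timp1). The libraries form 3 groups of 3, all from wild-type mice. The SBES group had a spinal cord injury and synergistic bidirectional electrical stimulation, at 10 Hz in replicate 1, 15 Hz in replicate 2 and 20 Hz in replicate 3. The untrained group had the injury without stimulation, and the sham group is the control, labelled sham. Per the labels, neurons carrying a fluorescent dye were aspirated with glass electrodes from fresh slices 4 weeks after injury and profiled by Smart-seq2, a full-length cDNA method. Each stimulation frequency has 1 library, so frequency and library cannot be told apart. The labels name 3 mice per group but neither say which mouse a library came from nor how many neurons it holds, so p-values measure the spread between these libraries, which may be technical. Within SBES this spread, and each SD given for the group, also holds any difference between the frequencies.

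Astrocytes are glial cells that surround neurons, take up glutamate and potassium from the extracellular space and exchange small molecules through gap junctions. Around a spinal cord injury they become reactive, with more of the intermediate filament proteins GFAP, vimentin and nestin and more secreted acute phase proteins such as lipocalin 2. The transcription factor STAT3, activated by cytokines of the interleukin 6 family, is known to drive much of the reactive programme, including Gfap.

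The starts of 4 genes are shown because the results turn on them. Lcn2, Serpina3n and Agt had the smallest p-values of the 35 when SBES was set against sham, and Gfap is the standard marker of reactivity. The sequences are from RefSeq on GRCm38.p6, run 5′ to 3′ on the gene's own strand and hold 250 bases before and 50 bases after the RefSeq start; capitals mark a match to the STAT motif TTCNNNGAA. The windows lie at chr2:32387690-32387989 on the minus strand for Lcn2, chr12:104406458-104406757 on the plus strand for Serpina3n, chr8:124569657-124569956 on the minus strand for Agt and chr11:102897151-102897450 on the minus strand for Gfap.
Lcn2: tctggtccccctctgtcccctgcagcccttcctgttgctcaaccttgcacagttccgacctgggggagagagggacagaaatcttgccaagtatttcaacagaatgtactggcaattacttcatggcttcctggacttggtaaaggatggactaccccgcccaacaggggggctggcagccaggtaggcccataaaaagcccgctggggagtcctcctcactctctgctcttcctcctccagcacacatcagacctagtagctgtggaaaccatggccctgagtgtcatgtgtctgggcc
Serpina3n: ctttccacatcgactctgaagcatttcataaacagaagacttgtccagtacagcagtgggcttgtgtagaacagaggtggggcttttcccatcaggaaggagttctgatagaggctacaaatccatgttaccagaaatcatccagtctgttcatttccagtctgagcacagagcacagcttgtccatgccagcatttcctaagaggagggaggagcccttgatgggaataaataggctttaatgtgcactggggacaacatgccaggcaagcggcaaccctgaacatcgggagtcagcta
Agt: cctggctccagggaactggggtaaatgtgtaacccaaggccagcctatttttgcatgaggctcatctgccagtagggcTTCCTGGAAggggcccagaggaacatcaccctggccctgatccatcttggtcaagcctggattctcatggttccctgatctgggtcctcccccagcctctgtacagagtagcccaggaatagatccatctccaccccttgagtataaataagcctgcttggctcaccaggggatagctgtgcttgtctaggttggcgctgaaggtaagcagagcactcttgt
Gfap: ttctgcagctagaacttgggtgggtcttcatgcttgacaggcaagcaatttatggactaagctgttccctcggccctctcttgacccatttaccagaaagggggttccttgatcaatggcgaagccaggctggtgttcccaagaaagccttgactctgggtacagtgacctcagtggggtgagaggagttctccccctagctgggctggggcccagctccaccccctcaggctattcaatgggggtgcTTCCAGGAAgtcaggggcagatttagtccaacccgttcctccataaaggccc

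Of the 35 genes, 30 had a RefSeq window, with 34 windows in all. Both strands were searched, and the motifs shown do not overlap one another. The STAT motif was in the windows of 5 of them, Agt at -172 to -164, Gfap at -2 to 7, Acsbg1 at -26 to -18, Ntsr2 at -62 to -54 and Slc1a3 at -96 to -88, counted from the RefSeq start. Of all 32851 windows of 300 bases, 8.30% held this motif, beside 5 of the 34 windows of these genes. The AP-1 motif TGANTCA was in the window of Gja1 alone among them, at -19 to -13, and in 7.81% of all windows. The palindromic motif of the nuclear factor I family was in none of them and in 0.0365% of all windows. Windows of Lcn2 and Serpina3n held none of the 3 motifs, which says only that these letters are not in these 300 bases. In the deposited table, on mm10, Lcn2 (ENSMUSG00000026822) spans 32384633 to 32388252 on chromosome 2. Serpina3n (ENSMUSG00000021091) spans 104406729 to 104414329 on chromosome 12, beside close paralogs of the same gene cluster, so its counts are uncertain where reads match more than 1 of them. Agt (ENSMUSG00000031980) spans 124556534 to 124569706 on chromosome 8. Gfap (ENSMUSG00000020932) spans 102887336 to 102900912 on chromosome 11, and the RefSeq starts of Lcn2 and Gfap lie inside their deposited gene spans.

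Total counts ran from 11821145 to 17675948 per library. The replicate 1 library of each group stood apart from the other 6. Malat1, a nuclear noncoding RNA, was at 6288 CPM (counts scaled by the library total adjusted by TMM) in SBES 1, 15296 CPM in untrained 1 and 20834 CPM in sham 1, against 466 to 1489 CPM in the others. Mitochondrial transcripts took 18.6% of the counts in SBES 1 and 7.36% in sham 1, against 2.47% to 6.27% elsewhere. Fits without them are given beside the results below that they moved most.

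All 35 genes had at least 1 count in each of the 9 libraries and entered the test, and together they took 1.86% to 2.98% of a library's counts. Set against other marker lists in the deposited FPKM (counts scaled by exon length and library total), the homeostatic genes had a median of 26.9 to 56.05 FPKM per library. The median was 106 to 152 FPKM over 12 pan-neuronal markers, 83.3 to 217 FPKM over 12 oligodendrocyte markers, 9.595 to 32.6 FPKM over 12 microglia markers and 2.37 to 6.785 FPKM over 12 motor neuron markers. Libraries labelled as motoneurons thus held astrocyte, oligodendrocyte and microglia transcripts beside neuronal ones. In RNA of this kind, fewer cells of a type and less RNA per cell cannot be told apart.

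Levels compared between genes are FPKM, as medians over the 9 libraries. Of the 35 genes, 11 had a median of at least 100 FPKM, 14 lay between 10 and 100, 9 between 1 and 10, and 1 was below 1. Sparc, which encodes a secreted matrix protein also made by other cells of the nervous system and its vessels, was highest with 1498 FPKM. S100b, a calcium-binding protein of glia, followed with 1065 FPKM, and then came Ndrg2 with 636, the clusterin gene Clu with 616, the glutamine synthetase gene Glul with 573, Sparcl1 with 543 and Gfap with 520 FPKM. Nes, the nestin gene, was lowest with 0.32 FPKM. Of the 7 reactive genes Gfap was thus the only one among the 11 most abundant.

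**Figure D1:**
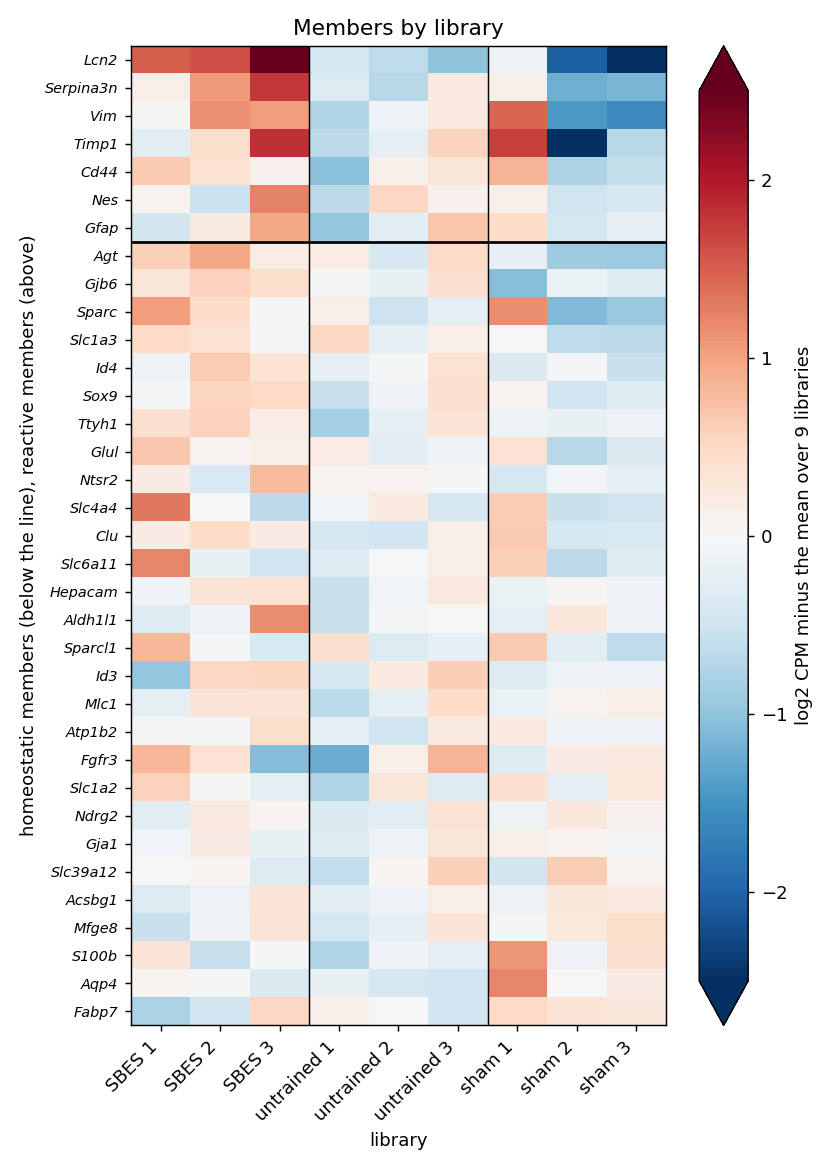
Levels of the 35 genes in each library, as log2 CPM minus the gene's mean over the 9 libraries. Columns run SBES, untrained and sham, and rows are grouped into reactive and homeostatic genes; colours are capped at the ends of the scale. Of the 7 reactive rows, 5 are highest in SBES 3 and 2 in sham 1, and Lcn2 spans the widest range, 89.9-fold between SBES 3 and sham 3.

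The 4 most variable genes of the set were reactive ones. Lcn2 was 89.9-fold higher in its highest than in its lowest library, Timp1 22.98-fold, Vim 8.22-fold and Serpina3n 7.86-fold, against 1.56-fold for the connexin 43 gene Gja1, the least variable of the 35. Gfap (3.81-fold), Nes (3.74-fold) and Cd44 (3.68-fold) came after the homeostatic genes Sparc (4.77-fold), Fgfr3 (4.24-fold) and Slc4a4 (3.95-fold). Within the sham group, sham 1 was the highest library for 7 of 7 reactive genes. Within SBES and within untrained, replicate 1 was the lowest library for 5 of 7 each. SBES 3, the 20 Hz library, was the highest of all 9 for 5 of 7 reactive genes, and sham 1 was the highest for the other 2, Vim and Cd44.

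Lcn2, which encodes lipocalin 2, a secreted protein that binds bacterial iron carriers, had the largest log2 fold change of the 35 in both SBES comparisons. It was at 129, 138 and 632 CPM in SBES 1 to 3, against 34.0, 29.3 and 22.5 CPM in untrained and 41.6, 11.0 and 7.03 CPM in sham. Each SBES library was above each of the other 6, and SBES 3 was far above SBES 1 and 2. Means were 299.8 ± 288 CPM in SBES, 28.6 ± 5.77 CPM in untrained and 19.9 ± 18.9 CPM in sham (SD, n = 3 libraries). The log2 fold change was 3.93 (SE 0.75) for SBES against sham, with an edgeR quasi-likelihood adjusted p of 0.0521, just above the threshold of 0.05. With the replicate number as a block it was 3.98, and edgeR's adjusted p was 0.0407. DESeq2 called it, with an adjusted p of 0.000793. SBES against untrained gave 3.39 (SE 0.72) with an edgeR adjusted p of 0.568 and a DESeq2 adjusted p of 0.0426. Untrained against sham gave 0.54 (SE 0.67), and 1.70 without sham 1. Over the alternatives, the adjusted p for SBES against sham ran from 6.19e-31 without a filter on low counts to 0.233 without sham 2. The fit without a filter called 517 genes for this comparison, against 55 with it, so its very small p-values call for caution. Lcn2 passed with edgeR when sham 1, untrained 1, SBES 1 or SBES 2 was left out, and missed when any of the other 5 was. Much of the size rested on SBES 3: without it the SBES difference was 2.77 against sham (edgeR adjusted p = 0.144) and 2.23 against untrained.

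Granulocytes also hold lipocalin 2, so their markers were read beside it, from a list chosen after values were seen. The granulocyte gene S100a8 had 640, 1244 and 1315 counts in SBES, 6951, 2042 and 801 counts in untrained and 9261, 195 and 71 counts in sham. Lcn2 had 1161, 1993 and 10219 counts in SBES, 514, 526 and 373 counts in untrained and 382, 173 and 129 counts in sham. The highest S100a8 was in sham 1 and the highest Lcn2 in SBES 3. Summed over the 10 granulocyte genes, the level was 133, 275 and 246 FPKM in SBES, 1172, 385 and 166 FPKM in untrained and 1784, 42.3 and 15.6 FPKM in sham. Sham 1 was the highest in this sum, and each SBES library lay above sham 2 and sham 3, as it did for Lcn2. Untrained 1 and 2, unlike for Lcn2, lay above every SBES library in this sum. Mmp9 of the same list was highest in sham 3, with 173 counts. The part of granulocytes in the Lcn2 differences was not tested.

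Serpina3n, a secreted serine protease inhibitor of the acute phase, was at 137, 253 and 411 CPM in SBES, 96.0, 75.1 and 145 CPM in untrained and 135, 52.4 and 55.2 CPM in sham. SBES libraries lay above all sham libraries, by a narrow margin between SBES 1 and sham 1, and overlapped untrained 3. Means were 267 ± 138 CPM in SBES, 105 ± 35.6 CPM in untrained and 81.0 ± 47.2 CPM in sham (SD, n = 3). The log2 fold change of SBES against sham was 1.72 (SE 0.45), not called by edgeR (adjusted p = 0.16) and called by DESeq2 (adjusted p = 0.00917). Its adjusted p ran from 6.11e-07 without a filter to 0.586 without sham 3. SBES against untrained gave 1.34 (SE 0.45; edgeR adjusted p = 0.867), and untrained against sham gave 0.38 (SE 0.44), or 1.00 without sham 1.

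Gfap, the astrocytic intermediate filament, did not separate the groups. It was at 1635, 2652 and 4379 CPM in SBES, 1149.6, 1893 and 3664 CPM in untrained and 3095, 1665 and 1956 CPM in sham. Libraries within SBES and within untrained differed by more than the group means, which were 2889 ± 1387 CPM in SBES, 2236 ± 1292 CPM in untrained and 2239 ± 756 CPM in sham (SD, n = 3). Log2 fold changes were 0.37 (SE 0.45) for SBES against untrained, 0.37 (SE 0.45) for SBES against sham and -0.0020 (SE 0.45) for untrained against sham. The sign of the last of these turned to 0.015 with DESeq2 and to 0.65 without the replicate 1 libraries. Vim, the other major filament gene of reactive astrocytes, also expressed by endothelium and microglia, was at 39.3, 85.2 and 79.7 CPM in SBES, 22.9, 35.8 and 45.5 CPM in untrained and 105, 14.2 and 12.8 CPM in sham. Sham 1 was the highest of all 9 libraries, and the other 2 sham libraries were the lowest. Its log2 fold change of SBES against sham was 0.64 (SE 0.66; edgeR adjusted p = 0.844) with all libraries and 2.35 (SE 0.40; edgeR adjusted p = 0.0487) without sham 1.

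The remaining reactive genes were lower in level. Timp1, an inhibitor of matrix metalloproteinases, was at 5.68, 9.36 and 24.8 CPM in SBES, 4.43, 5.96 and 10.3 CPM in untrained and 22.8, 1.08 and 4.31 CPM in sham. Cd44, a receptor for hyaluronan, was at 11.0, 9.22 and 7.54 CPM in SBES, 3.44, 7.68 and 8.69 CPM in untrained and 12.6, 4.13 and 4.63 CPM in sham. Nes was at 2.67, 1.73 and 5.94 CPM in SBES, 1.59, 3.62 and 2.71 CPM in untrained and 2.72, 1.78 and 1.91 CPM in sham. All 3 genes overlapped between all groups. For each of them sham 1 was the highest sham library.

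**Figure D2:**
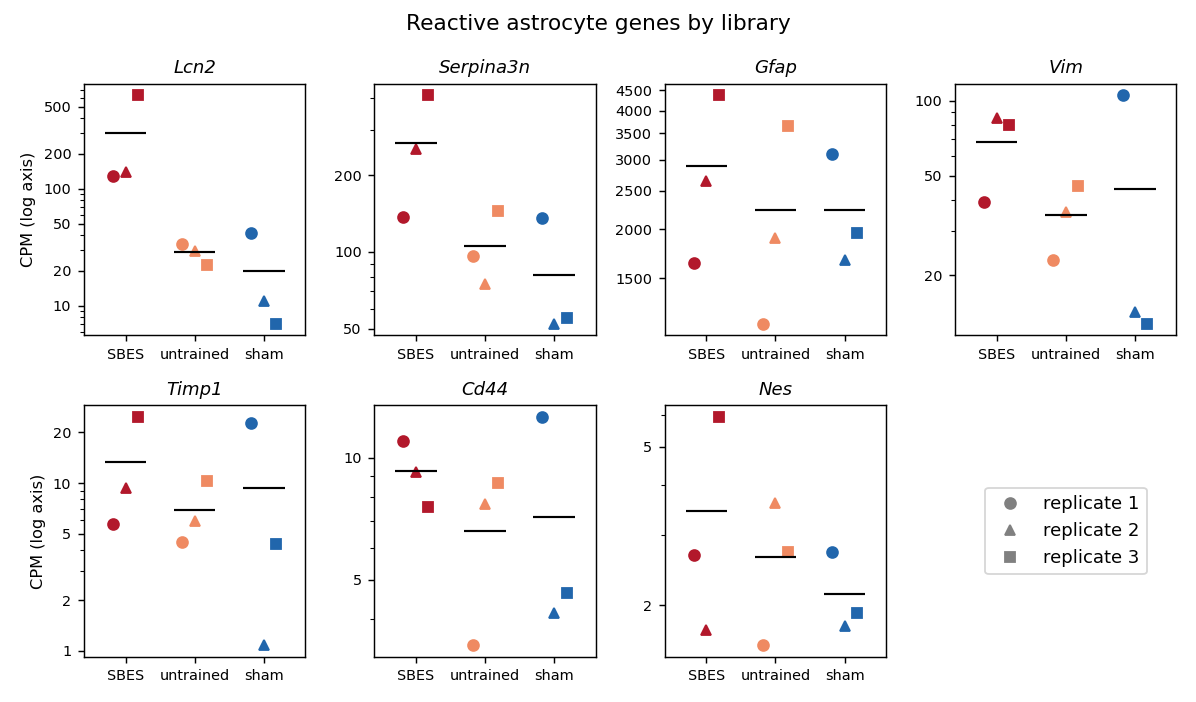
CPM (log axis) of the 7 reactive genes in each library, with SBES, untrained and sham from left to right, a marker per replicate and a line at the group mean. For Lcn2 the 3 SBES libraries (129 to 632 CPM) lie above the 3 untrained (22.5 to 34.0 CPM) and the 3 sham libraries (7.03 to 41.6 CPM), while for Gfap the groups overlap.

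Microglia and vessel markers are given beside these genes, since both cell types express some of them. Summed over 12 microglia markers, the level was 639, 1939 and 3041 FPKM in SBES, 1218, 1492 and 1596 FPKM in untrained and 1439, 765 and 628 FPKM in sham. SBES 3 was the highest in this sum and SBES 1 close to the lowest. Most of the sum in SBES 3 came from C1qa (698), C1qb (1029), C1qc (431) and Tyrobp (633 FPKM). The markers did not move together: P2ry12 was lower in each SBES library than in any other. The median of the list was highest in untrained 1 (32.6 FPKM), with 27.9 FPKM in SBES 3. Over 12 markers of endothelium and pericytes it was 325, 538 and 668 FPKM in SBES, 376, 576 and 467 FPKM in untrained and 171, 440 and 241 FPKM in sham. Over 12 motor neuron markers it was 183, 210 and 221 FPKM in SBES, 145, 263 and 248 FPKM in untrained and 180, 506 and 677 FPKM in sham. Calca and Calcb made 188 and 106 FPKM of this sum in sham 2, and 336 and 132 FPKM in sham 3. The median of these markers was 2.995, 3.585 and 4.405 FPKM in SBES, 2.37, 6.46 and 5.605 FPKM in untrained and 3.17, 6.785 and 6.425 FPKM in sham. The part of these cell types in the differences of the reactive genes was not tested. The homeostatic genes summed to 7051, 8217 and 6905 FPKM in SBES, 6306, 6032 and 7116 FPKM in untrained and 7443, 5699 and 5571 FPKM in sham.

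In both SBES comparisons the homeostatic genes had smaller log2 fold changes than Lcn2 and Serpina3n. Of the glutamate handling genes, Slc1a2, the glutamate transporter GLT-1, was at 311, 212 and 174 CPM in SBES, 124, 255 and 164 CPM in untrained and 278, 174 and 249.5 CPM in sham. Slc1a3, the glutamate transporter GLAST, was at 53.4, 49.5 and 37.1 CPM in SBES, 54.2, 32.0 and 42.7 CPM in untrained and 38.2, 24.6 and 24.3 CPM in sham. Glul, whose enzyme turns glutamate into glutamine, was at 3352, 2253 and 2322 CPM in SBES, 2396, 1737 and 1964 CPM in untrained and 2723, 1303 and 1644 CPM in sham. Groups overlapped for all 3 genes. Slc1a3 had log2 fold changes of 0.69 (SE 0.27; edgeR adjusted p = 0.444) for SBES against sham and 0.57 (SE 0.27) for untrained against sham. Slc1a2 gave -0.01 (SE 0.31) for SBES against sham, a sign that turned to 0.0016 with RLE size factors and with DESeq2.

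Aqp4, the water channel of astrocyte endfeet, was lower on average in both injured groups than in sham, without passing the test. It was at 232, 217 and 171 CPM in SBES, 194, 162 and 158 CPM in untrained and 514, 219 and 254 CPM in sham. Each untrained library lay below each sham library, and sham 1 was far above the other 8. The log2 fold change was -0.94 (SE 0.31) for untrained against sham and -0.67 (SE 0.31; edgeR adjusted p = 0.532) for SBES against sham. Without sham 1 these were -0.43 and -0.18, and without the replicate 1 libraries of all groups -0.54 and -0.28. S100b had the same order of group means, with 1983, 1063 and 1555 CPM in SBES, 945, 1507 and 1345 CPM in untrained and 3431, 1459.7 and 2102 CPM in sham. Groups overlapped for S100b, with log2 fold changes of -0.88 (SE 0.35) for untrained against sham and -0.60 (SE 0.35) for SBES against sham. Without sham 1 these were -0.45 and -0.20, and without the replicate 1 libraries of all groups -0.29 and -0.44.

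The gap junction genes differed from each other. Gjb6, connexin 30, was at 212, 257 and 232 CPM in SBES, 168, 152 and 230.4 CPM in untrained and 82.4, 154 and 139.5 CPM in sham. Gja1, connexin 43, was at 115, 138 and 105 CPM in SBES, 95.3, 109 and 149 CPM in untrained and 135, 127 and 119 CPM in sham. SBES libraries lay above all sham libraries for Gjb6. For Gja1, SBES 2 lay above the sham libraries and SBES 1 and 3 below them. The log2 fold change of SBES against sham was 0.90 (SE 0.27; edgeR adjusted p = 0.229) for Gjb6 and -0.09 (SE 0.22) for Gja1.

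Agt encodes angiotensinogen, a secreted precursor of angiotensin that astrocytes make in the brain and spinal cord. It was at 1166, 1512 and 876 CPM in SBES, 875, 586 and 1075 CPM in untrained and 675, 420.2 and 412 CPM in sham. SBES libraries lay above all sham libraries and overlapped the untrained ones, of which untrained 2 was below sham 1. Means were 1185 ± 318 CPM in SBES, 845 ± 246 CPM in untrained and 503 ± 149.6 CPM in sham (SD, n = 3). The log2 fold change of SBES against sham was 1.24 (SE 0.32), not called by edgeR (adjusted p = 0.151) and called by DESeq2 (adjusted p = 0.00849). Its adjusted p ran from 0.00277 without a filter to 0.579 without sham 3. Untrained against sham gave 0.75 (SE 0.31) and SBES against untrained 0.49 (SE 0.31).

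Among the identity genes, Sox9, the transcription factor that specifies astrocytes, was at 23.3, 34.5 and 34.0 CPM in SBES, 16.0, 22.3 and 31.8 CPM in untrained and 25.3, 16.8 and 19.3 CPM in sham. Aldh1l1, a folate enzyme used as a general astrocyte marker, was at 35.7, 41.3 and 101 CPM in SBES, 30.3, 43.1 and 44.2 CPM in untrained and 37.7, 54.2 and 41.4 CPM in sham. Only SBES 3 stood above the other libraries for Aldh1l1. Ttyh1, a chloride channel family gene, was at 229, 260.2 and 198 CPM in SBES, 95.6, 147 and 219.6 CPM in untrained and 159, 153 and 159.6 CPM in sham. Its SBES libraries lay above all sham libraries, with a log2 fold change of 0.54 (SE 0.28; edgeR adjusted p = 0.59).

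**Figure D3:**
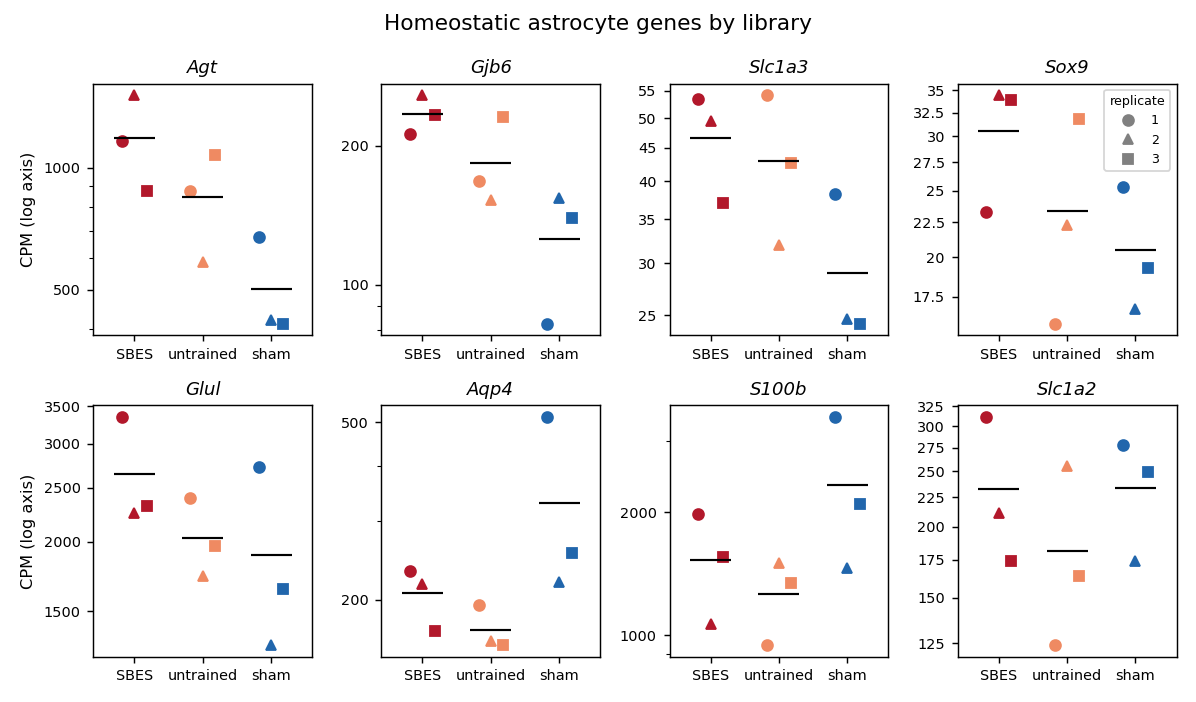
CPM (log axis) of the homeostatic genes Agt, Gjb6, Slc1a3, Sox9, Glul, Aqp4, S100b and Slc1a2 in each library, with SBES, untrained and sham from left to right, a marker per replicate and a line at the group mean. Gjb6 (212 to 257 CPM) and Agt (876 to 1512 CPM) are above the sham libraries in all 3 SBES libraries, and Aqp4 is highest in sham 1 (514 CPM).

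The other homeostatic genes are given by group means. Mlc1 and Hepacam, partners in a membrane complex of astrocyte endfeet, averaged 267 ± 56.1 and 189.8 ± 30.5 CPM in SBES, 226 ± 92.1 and 154 ± 42.2 CPM in untrained and 243 ± 27.3 and 155 ± 11.4 CPM in sham. Clu, a secreted chaperone, averaged 2964 ± 307 CPM in SBES, 2071 ± 536 CPM in untrained and 2486 ± 1116 CPM in sham. Each SBES library lay above each untrained one for Clu. The matrix gene Sparc averaged 8508 ± 3217 CPM in SBES, 5136 ± 1213 CPM in untrained and 6244 ± 5812 CPM in sham, and its relative Sparcl1 averaged 1961 ± 899 CPM in SBES, 1650.4 ± 478 CPM in untrained and 1697 ± 822 CPM in sham. Sham 1 alone held 12951 CPM of Sparc, against 2714 and 3066 CPM in sham 2 and 3. Ntsr2, a neurotensin receptor of astrocytes, averaged 1023 ± 405 CPM in SBES, 868 ± 44.5 CPM in untrained and 714 ± 91.9 CPM in sham. Fabp7, a fatty acid binding protein of immature astrocytes and radial glia, averaged 24.1 ± 12.1 CPM in SBES, 24.7 ± 5.11 CPM in untrained and 34.5 ± 2.59 CPM in sham. For both, the 3 untrained libraries did not overlap the sham ones, above them for Ntsr2 and below them for Fabp7.

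Id4 and Id3, inhibitors of basic helix-loop-helix factors, averaged 88.1 ± 23.03 and 126 ± 60.0 CPM in SBES, 73.9 ± 16.5 and 129 ± 43.6 CPM in untrained and 56.9 ± 10.2 and 99.3 ± 8.37 CPM in sham. The 3 transporters Slc4a4 (bicarbonate), Slc6a11 (GABA) and Slc39a12 (zinc) averaged 48.6 ± 34.9, 53.4 ± 36.5 and 62.8 ± 8.59 CPM in SBES, 34.0 ± 7.64, 39.4 ± 6.36 and 70.8 ± 28.7 CPM in untrained and 34.5 ± 17.0, 40.1 ± 18.7 and 73.2 ± 26.6 CPM in sham. Groups overlapped for all 5. The growth factor receptor gene Fgfr3, the sodium pump subunit gene Atp1b2, the lipid enzyme gene Acsbg1, Ndrg2 and Mfge8, which encodes a bridging protein for phagocytosis, also overlapped in every comparison. Their log2 fold changes ran from -0.29 for Mfge8 to 0.17 for Fgfr3 in SBES against sham.

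Set against sham, which asks what the injury left after 4 weeks, the untrained libraries called 0 of the 35 genes with edgeR, and 0% of the 15893 genes tested. DESeq2 called 0 of the 35, against 0.113% of all genes, as did edgeR with the replicate block (0.0252%) and without a filter on low counts (0.422% of 31752 genes). At an unadjusted p under 0.05 edgeR had 1 gene higher (Agt) and 2 lower (Aqp4 and S100b), against 2.18% and 2.27% of all genes. Libraries did not overlap for 1 gene above sham (Ntsr2) and 2 below it (Aqp4 and Fabp7), against 4.63% and 5.13% of all genes. The median log2 fold change was -0.04 over the 28 homeostatic genes and -0.0020 over the 7 reactive genes, beside -0.0068 over all genes tested. Of the homeostatic genes 9 of 28 were positive and of the reactive 3 of 7, beside 49.1% of all genes. Without the replicate 1 libraries of all groups the majority of signs turned: 21 of 28 homeostatic and 7 of 7 reactive genes were positive, with medians of 0.19 and 1.06. In that smaller fit, in which edgeR called 0.29% of 16210 genes, Vim was called with a log2 fold change of 1.62 (SE 0.21, adjusted p = 0.0164). It leaves out sham 1, the highest sham library for 7 of 7 reactive genes, and untrained 1, the lowest untrained library for 5 of 7.

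SBES against untrained asks what the stimulation changed after injury. EdgeR called 0 of the 35 genes and 0% of all genes. DESeq2 called 1, Lcn2, against 0.189% of all genes, and edgeR without a filter on low counts called 2, Lcn2 and Serpina3n, against 0.586%. At an unadjusted p under 0.05 edgeR had 2 genes higher (Lcn2 and Serpina3n) and 0 lower, against 3.7% and 1.67% of all genes. Libraries did not overlap for 2 genes above untrained (Lcn2 and Clu) and 0 below, against 5.66% and 4.77% of all genes. Positive values were common: 25 of 28 homeostatic and 7 of 7 reactive genes had a positive log2 fold change, beside 51.7% of all genes, with medians of 0.27 and 0.96 beside 0.015. Without the replicate 1 libraries of all groups 21 of 28 and 7 of 7 were positive, and without SBES 3 21 of 28 and 5 of 7. Without the replicate 1 libraries edgeR called Lcn2 (log2 fold change 3.87, SE 0.55, adjusted p = 0.0325), against 0.0802% of all genes.

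For SBES against sham, edgeR called 0 of the 35 genes, against 0.346% of all genes (0.271% higher and 0.0755% lower), and Lcn2 was 56th of the 15893 by p. It called 1, Lcn2, with the replicate block, against 0.831%, and the same gene with RLE size factors, against 0.352%. DESeq2 called 3 (Lcn2, Serpina3n and Agt), against 1.89%, and so did edgeR without a filter on low counts, against 1.63%. At an unadjusted p under 0.05 edgeR had 6 genes higher (Lcn2, Agt, Serpina3n, Gjb6, Slc1a3 and Id4) and 1 lower (Aqp4), against 5.7% and 3.61% of all genes. Libraries did not overlap for 5 genes above sham (Lcn2, Serpina3n, Agt, Gjb6 and Ttyh1) and 0 below, against 7.1% and 6.73% of all genes. Medians were 0.27 over the homeostatic genes (19 of 28 positive) and 0.64 over the reactive genes (7 of 7 positive), beside -0.0018 over all genes (49.8% positive). Without SBES 3, 18 of 28 and 5 of 7 were positive. This comparison shares its SBES libraries with the one against untrained and its sham libraries with that of untrained against sham, so the 3 sets of values are not independent.

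Leaving out the replicate 1 libraries of all groups moved SBES against sham most. In that fit edgeR called 7 of the 35 genes, all higher, against 3.58% of all genes called and 2.87% called higher. Lcn2 rose by 5.43 (SE 0.60, adjusted p = 0.000807), Serpina3n by 2.63 (SE 0.32, adjusted p = 0.00115) and Vim by 2.62 (SE 0.21, adjusted p = 0.000229) on the log2 scale. Timp1 rose by 2.65 (SE 0.57, adjusted p = 0.0241), Agt by 1.53 (SE 0.31, adjusted p = 0.0199), Sparc by 1.24 (SE 0.26, adjusted p = 0.0212) and Sox9 by 0.93 (SE 0.23, adjusted p = 0.0450). These 7 calls rest on 2 libraries a group, and the SBES libraries left are those at 15 and 20 Hz. Sham 1 was the highest sham library for 7 of 7 reactive genes, and SBES 1 the lowest SBES library for 5 of 7. Where both hold, leaving these libraries out raises the difference by itself, so the count of calls is no separate support.

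**Figure D4:**
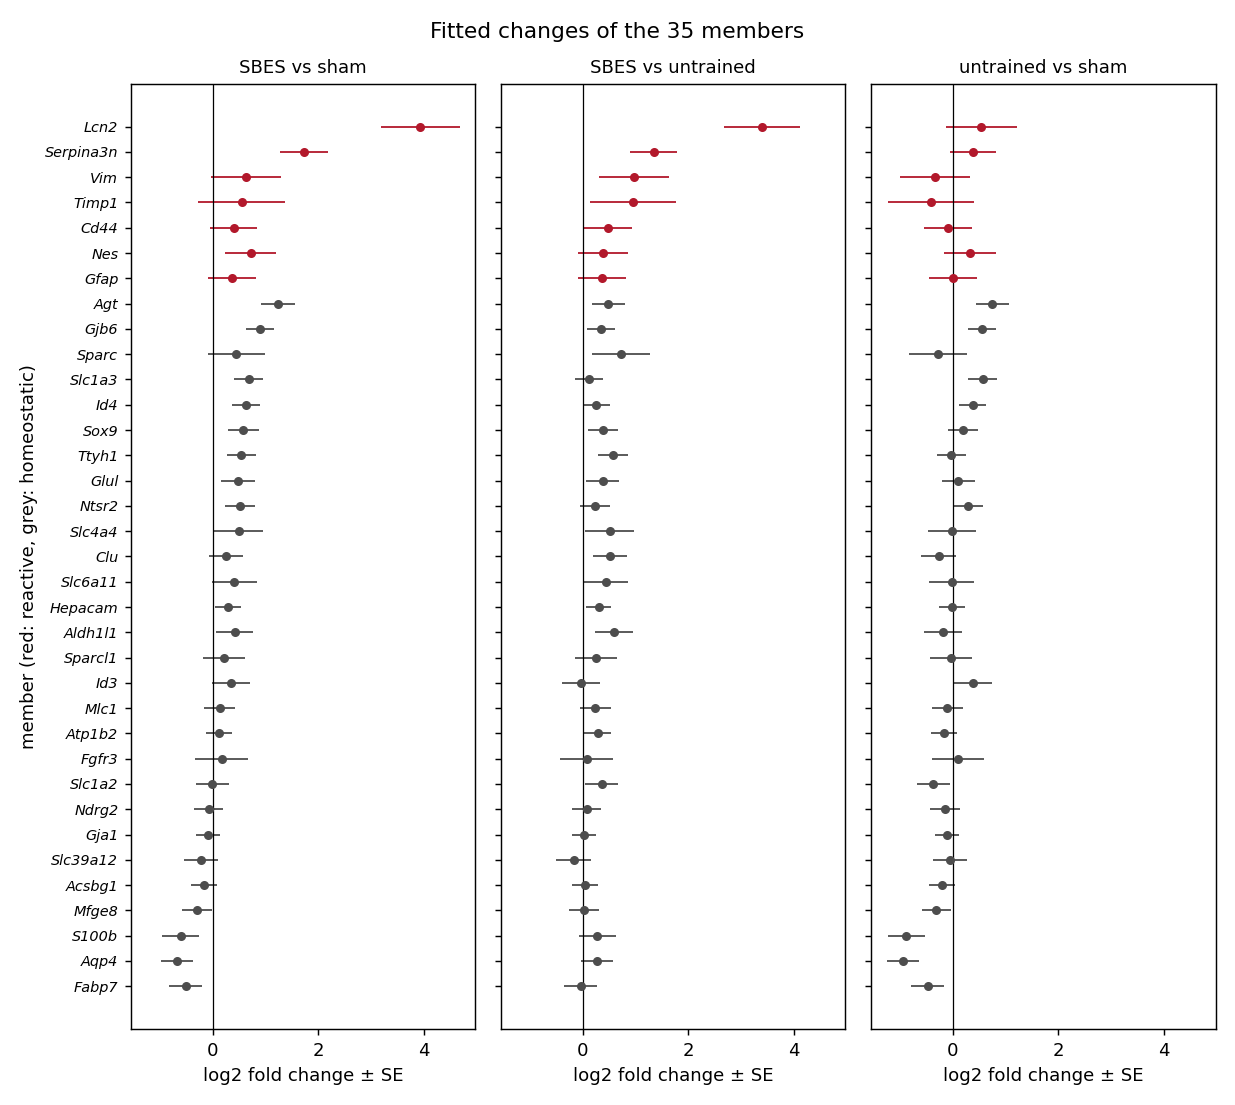
Log2 fold change (point) and its standard error (bar) from edgeR for each of the 35 genes, in panels for the 3 comparisons. Lcn2 lies farthest from 0 in SBES against sham (3.93) and SBES against untrained (3.39), and Aqp4 is the lowest in untrained against sham (-0.94).

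Ratios within a library compare genes without a scaling between libraries; all are of FPKM. Gfap over Aqp4, a ratio of filament to endfoot transcripts, was 10.4, 18.1 and 37.9 in SBES, 8.75, 17.3 and 34.3 in untrained and 8.89, 11.2 and 11.4 in sham. Replicates 1, 2 and 3 of SBES and of untrained were thus spread alike, and replicate 1 of each lay within or below the sham range. The summed reactive over the summed homeostatic level was 0.0560, 0.112 and 0.225 in SBES, 0.0571, 0.0984 and 0.150 in untrained and 0.0844, 0.0864 and 0.0935 in sham, with overlap between all groups. Abundant genes weigh most in these sums. Gfap made 958 of the 1070 FPKM of the reactive sum in untrained 3, and Sparc 2483 of the 7443 FPKM of the homeostatic sum in sham 1.

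A further 3 ratios were chosen after values were seen and are descriptions only. Gjb6 over Gja1 was 7.08, 7.14 and 8.48 in SBES, 6.76, 5.38 and 5.94 in untrained and 2.34, 4.64 and 4.52 in sham, with no overlap between any groups. Lcn2 over Gfap was 0.127, 0.0838 and 0.232 in SBES, 0.0475, 0.0249 and 0.00987 in untrained and 0.0216, 0.0106 and 0.00578 in sham. Each SBES library was above the other 6 for this ratio. Serpina3n over Gfap was 0.171, 0.195 and 0.192 in SBES, 0.171, 0.0811 and 0.0806 in untrained and 0.0894, 0.0643 and 0.0576 in sham, so that untrained 1 was level with SBES 1.

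**Figure D5:**
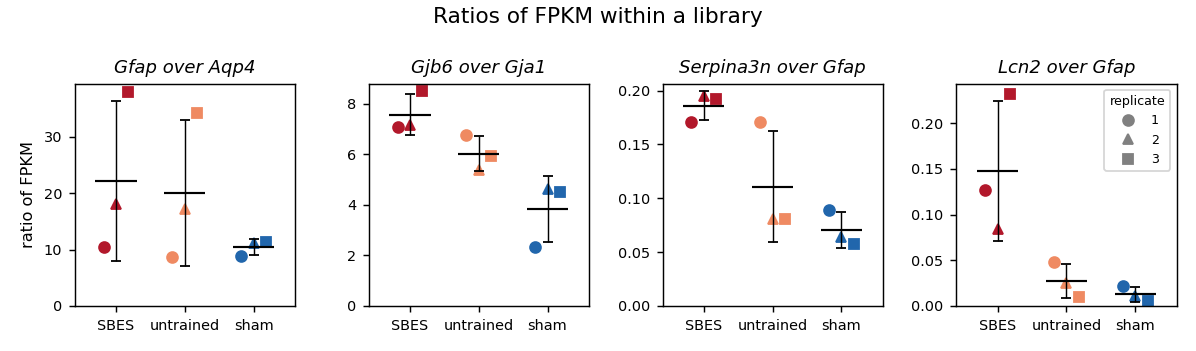
Ratios of FPKM within each library, with SBES, untrained and sham from left to right, points for libraries and the mean ± SD (n = 3) of each group. Gjb6 over Gja1 is highest in SBES (7.08 to 8.48) and lowest in sham (2.34 to 4.64), while Gfap over Aqp4 spreads from 10.4 to 37.9 within SBES.

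Genes beyond the 35 were taken from lists here named pan-reactive, A1 (neuroinflammatory) and A2 (ischaemic), and from a list of further astrocyte genes. The reactive lists follow genes described in mouse brain only in part and are not published panels. The list named pan-reactive also holds Fbln5, Cd109, C3, Stat3, Sox2, Gpnmb and Lgals3. Of 16 pan-reactive genes beyond the members, 15 were tested and 0 were called by edgeR in any comparison. Their median log2 fold change was 0.06 for untrained against sham, 0.69 for SBES against untrained and 0.90 for SBES against sham. In each of the last pair of comparisons 6 of 15 lay above without overlap, where 5.66% and 7.1% of all genes did. Above untrained these were Hspb1, Osmr, Cp, Fbln5, Stat3 and Cd109, and above sham Aspg took the place of Cd109. Fbln5, Stat3 and Cd109 are among the genes this list also holds. The list was chosen with earlier results of these data known, so these counts are descriptions only. Hspb1, a small heat shock protein gene, was at 392, 281 and 981 CPM in SBES, 105, 192 and 192 CPM in untrained and 230.0, 138 and 191 CPM in sham. It had log2 fold changes of 1.76 against untrained (SE 0.43; DESeq2 adjusted p = 0.0297) and 1.57 against sham (SE 0.43; DESeq2 adjusted p = 0.0178), neither called by edgeR. Without SBES 3 these were 1.04 and 0.86. Fbln5, the matrix protein fibulin 5, was at 16.0, 48.3 and 29.7 CPM in SBES, 14.9, 7.74 and 15.1 CPM in untrained and 12.5, 12.4 and 10.6 CPM in sham. For both genes each SBES library lay above the other 6.

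Genes of the cytokine pathway upstream of the reactive programme were in the same list. Stat3 was at 57.7, 55.4 and 89.2 CPM in SBES, 34.6, 42.5 and 49.9 CPM in untrained and 42.9, 37.0 and 42.3 CPM in sham. Osmr, the oncostatin M receptor gene, was at 4.79, 4.72 and 6.18 CPM in SBES, 3.17, 3.17 and 3.92 CPM in untrained and 3.27, 1.46 and 0.491 CPM in sham. Each SBES library lay above the other 6 for Stat3 and for Osmr. Stat3 had a log2 fold change of 0.67 (SE 0.24; edgeR adjusted p = 0.909) for SBES against untrained, and Osmr had 1.05 (SE 0.51) for untrained against sham, which was 1.86 without sham 1. Aspg, an asparaginase gene, was at 3.68, 7.28 and 9.52 CPM in SBES, 1.12, 2.56 and 5.25 CPM in untrained and 2.94, 1.33 and 1.09 CPM in sham. The ceruloplasmin gene Cp and the sphingosine phosphate receptor gene S1pr3 had log2 fold changes of 0.72 (SE 0.42) and 0.87 (SE 0.39) for untrained against sham, also not called.

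Of the A2 genes, 7 of 11 were tested, and the transporter gene Slc10a6 was the only gene of these lists that edgeR called (SBES against sham, adjusted p = 0.0368). It was at 2.79, 1.32 and 9.34 CPM in SBES, 0.198, 0.278 and 0.844 CPM in untrained and 0, 0 and 0 CPM in sham. Slc10a6 passed the filter on low counts only through its SBES libraries, so its entry into the test rested on the level that was tested. Set against a floor of 3 counts over the sham group, it rose at least 64.6-fold in SBES, and at least 29.6-fold with SBES 3 left out of the mean. The call was lost with edgeR when sham 1, sham 2, sham 3, untrained 2 or SBES 3 was left out (adjusted p = 0.0586 to 0.186). DESeq2 also called it for SBES against untrained (adjusted p = 0.0185). The list's median was 0.34 for untrained against sham, 0.17 for SBES against untrained and 0.20 for SBES against sham. Cd14, a lipopolysaccharide coreceptor that microglia express, was at 7.24, 16.1 and 60.9 CPM in SBES, 10.7, 14.8 and 18.8 CPM in untrained and 9.48, 8.95 and 4.69 CPM in sham. SBES 3 was far above the other libraries and SBES 1 below 2 of the sham ones. Its log2 fold change of SBES against sham was 1.88 (SE 0.61; edgeR adjusted p = 0.287), and 0.62 without SBES 3.

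Of 10 A1 genes, all tested, edgeR called 0 in any comparison. Their median was 0.49 for untrained against sham (9 of 10 positive), -0.14 for SBES against untrained (3 of 10 positive) and 0.29 for SBES against sham (7 of 10 positive). Fkbp5, a cochaperone gene induced by glucocorticoids, was at 49.9, 38.1 and 65.5 CPM in SBES, 11.7, 17.0 and 45.2 CPM in untrained and 7.08, 12.8 and 9.49 CPM in sham. Its log2 fold change for SBES against sham was 2.38 (SE 0.45), with an edgeR adjusted p of 0.0546. Srgn, a proteoglycan gene of blood and immune cells as well, was at 26.5, 28.9 and 44.1 CPM in SBES, 24.1, 37.5 and 23.2 CPM in untrained and 16.7, 14.0 and 11.7 CPM in sham. Both injured groups lay above sham for Srgn, with log2 fold changes of 1.24 (SE 0.28; edgeR adjusted p = 0.106) for SBES and 1.00 (SE 0.28; edgeR adjusted p = 0.927) for untrained. Fkbp5 had 1.05 (SE 0.43) for SBES against untrained, and 1.83 without untrained 3.

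Of 22 further astrocyte genes, all tested, edgeR called 0 in any comparison, and the medians were -0.04, 0.18 and 0.04 for untrained against sham, SBES against untrained and SBES against sham. Prodh, the proline dehydrogenase gene, was at 46.6, 69.5 and 59.4 CPM in SBES, 26.2, 32.6 and 52.8 CPM in untrained and 15.3, 27.1 and 34.2 CPM in sham. SBES against sham gave 1.19 (SE 0.33; edgeR adjusted p = 0.201, DESeq2 adjusted p = 0.0470). Slc7a10, a carrier of serine and glycine, was at 129, 88.7 and 174 CPM in SBES, 95.9, 148 and 199 CPM in untrained and 202, 255 and 279.9 CPM in sham. Each library of both injured groups lay below each sham library for Slc7a10, by -0.91 (SE 0.31; edgeR adjusted p = 0.325) in SBES and -0.74 (SE 0.31) in untrained on the log2 scale. Hes5, a Notch target, was at 1.11, 3.40 and 3.15 CPM in SBES, 6.08, 3.73 and 5.13 CPM in untrained and 5.23, 7.81 and 4.63 CPM in sham. Dbx2, a homeobox gene, was at 58.0, 60.2 and 62.9 CPM in SBES, 72.0, 110.0 and 104 CPM in untrained and 75.1, 98.2 and 92.7 CPM in sham. SBES libraries were the 3 lowest for Hes5 and for Dbx2. F3, the tissue factor gene, was at 102, 99.9 and 89.8 CPM in SBES, 129, 85.9 and 95.1 CPM in untrained and 55.9, 81.4 and 66.8 CPM in sham, the sham libraries being the 3 lowest.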

How the data were processed

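Per the labels' protocols, the authors used Hisat2 2.0.1 for alignment, HTSeq 0.6.1 for counting and DESeq2 for testing. The submitters' processing notes name mm10 as the build. For the gene annotation's release, and for whether counting used strand, the entry is "not given in the sources used here". Whole-number counts and FPKM for 55401 genes in 9 libraries were deposited by the authors, and FPKM recomputed from the counts and exonic lengths matched 100% of the deposited values within 0.006. Columns of 5 libraries were matched by name, and those of 4, the 3 untrained ones and SBES 1, by elimination, on which their values rest.

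Counts were tested with edgeR 4.0.16 (quasi-likelihood) in R 4.3.3, after filterByExpr (15893 genes) and TMM scaling, in 1 fit of all libraries with no covariate. The threshold for a call was an adjusted p (Benjamini-Hochberg) under 0.05. A standard error is the absolute log2 fold change over the root of F. Groups do not overlap where each library of one lies above each of the other. Alternatives were DESeq2 1.42.0, RLE size factors, no filter, the replicate number as a block, each library left out in turn, and all replicate 1 libraries left out. Deviations of same-numbered SBES and sham libraries had correlations of 0.33, 0.19 and 0.19, and those of differently numbered ones ran from -0.30 to 0.21. Same-numbered pairs with untrained libraries ran from -0.17 (untrained 2 with SBES 2) to 0.44 (sham 1 with untrained 1). The numbers thus do not establish a pairing, and the block is given only as an alternative. Scripts were tested on simulated data. The floor of 3 counts covers counting error only, since PCR copies are not separate molecules. Levels are CPM with the SD over 3 libraries.

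Named genes are all 35, the 4 of smallest p per comparison with values by library, and of each further list its called genes or otherwise the 3 of smallest p. The 35 genes and all lists were chosen with earlier results of these data known.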

Additional observations from a re-analysis of the deposited data

How the results depend on the processing

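Genes called for untrained against sham were 0 with edgeR, 134 without a filter on low counts, 18 with DESeq2, 4 with the replicate block and 47 without the replicate 1 libraries of all groups. For SBES against untrained they were 0, 186 without a filter, 30 with DESeq2 and 13 without the replicate 1 libraries, and 0 to 1 with single libraries left out. For SBES against sham they were 55, with 517 without a filter, 300 with DESeq2, 132 with the replicate block and 581 without the replicate 1 libraries, and 0 (without sham 3) to 86 (without SBES 1) with single libraries left out; it was 29 without sham 1, 6 without sham 2, 24 without untrained 2 and 4 without SBES 3. Of the 35 genes, untrained against sham called 1 without the replicate 1 libraries. SBES against untrained called 2 without a filter, 1 with DESeq2 and 1 without the replicate 1 libraries. SBES against sham called 1 with RLE size factors, 3 without a filter, 3 with DESeq2, 1 with the replicate block and 7 without the replicate 1 libraries, and 0 to 2 with single libraries left out. The cause of these differences was not tested.

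For untrained against sham the homeostatic median was 0.19 without the replicate 1 libraries and -0.29 to 0.041 with single libraries left out, and the reactive median 1.06 and -0.33 (without untrained 3) to 1.00 (without sham 1). For SBES against sham the reactive median was 2.62 and 0.22 (without sham 2) to 2.32 (without sham 1), and for SBES against untrained 0.61 to 1.24 with single libraries left out. Lcn2 ran from 2.77 (without SBES 3) to 5.08 (without sham 1) for SBES against sham and from 2.23 to 3.76 for SBES against untrained.

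Without the replicate 1 libraries of all groups, log2 fold changes of the 35 genes turned sign for 12 homeostatic and 4 reactive genes in untrained against sham, 8 homeostatic genes in SBES against untrained and 1, Fgfr3, in SBES against sham (-0.40, against 0.17 with all libraries). Among them were Sparc (0.66), Clu (0.29) and Slc6a11 (0.57) in untrained against sham, and Fgfr3 (-0.75), Slc4a4 (-0.27) and S100b (-0.14) in SBES against untrained. Turned signs are listed next only for the reactive genes, Aqp4, Slc1a2, Slc1a3, Aldh1l1, Gja1, Gjb6, Glul, Sox9 and the 4 genes of smallest p in each comparison. For untrained against sham Gfap was 0.015 with RLE size factors, 0.067 without a filter, 0.015 with DESeq2 and 0.65 without the replicate 1 libraries. Vim was 0.0089 and Cd44 0.044 with the replicate block. Without the replicate 1 libraries Vim was 1.62, Cd44 0.93, Timp1 1.59, Slc1a2 0.012 and Gja1 0.093. For SBES against untrained Gja1 was -0.011 without a filter and -0.10 without the replicate 1 libraries, where Slc1a2 was -0.14. For SBES against sham Slc1a2 was 0.0016 with RLE size factors, 0.011 without a filter and 0.0016 with DESeq2.

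With single libraries left out, untrained against sham ran from -0.56 to 0.35 for Gfap, -0.77 to 1.40 for Vim, -0.36 to 0.63 for Cd44, -0.95 to 1.38 for Timp1, -0.10 to 0.50 for Glul, -0.28 to 0.0092 for Aldh1l1, -0.32 to 0.056 for Gja1 and -0.092 to 0.44 for Sox9. SBES against untrained ran from -0.13 to 0.23 for Gja1, -0.055 to 0.29 for Slc1a3, -0.061 to 0.93 for Gfap, -0.28 to 0.72 for Nes and -0.027 to 0.86 for Aldh1l1. SBES against sham ran from -0.25 to 0.16 for Slc1a2, -0.061 to 0.69 for Gfap, -0.27 to 2.32 for Timp1 and -0.21 to 0.71 for Aldh1l1. Of 700 log2 fold changes of these genes and Slc10a6 under these alternatives, 628 kept direction and side of the threshold, 44 turned sign, 23 passed it newly and 5, all of Slc10a6, no longer passed it. The replicate block changed no call of the 35 genes but that of Lcn2 for SBES against sham.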
